A study of Mus musculus with 9 samples.

Results

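The 55 genes described here encode enzymes, cofactors and membrane proteins of the lysosome, and they were chosen by name for their known place in the organelle. The rule uses no measured value, but earlier results of these data were known when the genes were chosen. All 55 matched 1 of the 53700 Ensembl gene IDs of the count table. They fall into 7 membrane proteins, 11 cathepsins, 2 other proteases, 12 glycosidases, 6 sulfatases or acetyltransferases, 5 lipid or thioester hydrolases, 4 soluble cofactors and 8 subunits or accessory proteins of the V-ATPase. Lysosomes are the acidic compartments in which cells break down proteins, glycans, lipids and nucleic acids that arrive by endocytosis and autophagy. The V-ATPase pumps protons into the lumen, where soluble hydrolases work at low pH, and the membrane proteins protect the boundary and export the products. In muscle, glycogen, lipid droplets and worn organelles are cleared in this way, and inherited loss of acid alpha-glucosidase (Gaa) or of Lamp2 leads to muscle disease.

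The samples were C2C12 cells, a mouse myoblast line that divides in serum and can fuse into myotubes when serum is withdrawn. All 3 groups were starved for 12 h in a reduced-serum medium. The Control group was collected at that point. The Valine group was then kept for 36 h with 0.45 mM valine, a branched-chain amino acid. The Val+PA group was given the same 0.45 mM for 24 h and, for 12 h, palmitic acid at 75 µM, a saturated fatty acid of diet and fat stores. A group filled 1 six-well plate, and a random draw of 3 wells per plate went to RNA sequencing, so p-values here reflect differences between wells that shared a plate. Since Control wells were collected earlier and on another plate, valine, the added hours in culture and the plate cannot be told apart in any comparison with Control.

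The libraries held 26750226 to 35976589 counts, and 1 count was worth 0.0271 to 0.0403 CPM (counts scaled to a common library size with TMM factors). Control 3 and Val+PA 2 stood apart within their groups, with a chi-square per degree of freedom of 51.4 to 118 against their group mates, where the other pairs within a group gave 3.99 to 20.1. Myoblast markers (Myod1, Myf5, Pax7, Des, Cdh15 and Chrna1) summed to 1930 CPM or more in every library. None was at 0 in any library, and none stayed under 1 CPM throughout a group. Such a sum is carried by its most abundant genes and does not set the cell type apart. In Valine the fibroblast markers described below summed to more, at 3239 to 3339 CPM against 2748 to 2878 CPM. A gene was called where the Benjamini-Hochberg adjusted p of edgeR's quasi-likelihood test, written below as the edgeR adjusted p, was under 0.05 over the 18415 genes tested. Of the 55 members 53 were tested and 52 had at least 10 counts in every library.

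Levels can be compared between genes only per gene length, which the authors' length-normalized signal allows. On that scale Ctsb (cathepsin B) averaged 701 over the 9 libraries, Psap (the precursor of the saposins) 694 and Lamp1 (a major glycoprotein of the lysosomal membrane) 671. The library ranges of these 3 genes overlapped, at 475 to 983, 463 to 1110 and 518 to 745, so that their order is not resolved. Ctsd (cathepsin D) followed at 526, ahead of Ctsl at 195, Npc2 at 194 and Hexa at 187. At the low end stood Cln3 at 0.757, Ctsk at 0.455, Ctss at 0.0682 and Ctsc at 0.021. Cathepsins thus stood among the genes of highest level and among those of lowest level. Ctsc and Ctss, the dipeptidyl peptidase cathepsin and a cathepsin of antigen-presenting cells, had 0 to 4 and 0 to 6 counts per library and were not tested. Ctsk, the collagen-degrading cathepsin of osteoclasts, was tested on 3 to 17 counts per library.

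**Figure D1:**
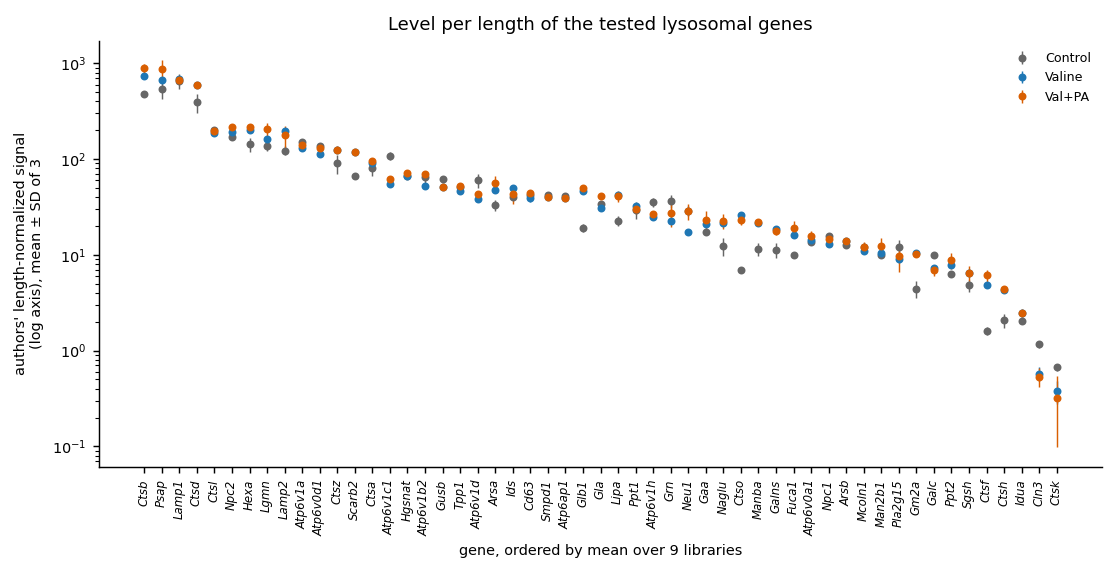
Level of the 53 tested lysosomal genes on the authors' length-normalized signal (log axis), as mean ± SD of 3 libraries per group, ordered by the mean over 9 libraries from Ctsb at 701 to Ctsk at 0.455. Cathepsins lie among the highest and the lowest points, and the Valine and Val+PA points of Ctso, Glb1, Gm2a and Ctsf lie above those of Control, while those of Atp6v1c1 and Cln3 lie below.

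Between Valine and Control the lysosomal genes moved in both directions. Of 9 tested cathepsins 6 rose and of 12 glycosidases 5, led by Ctso (3.71-fold), Ctsf (2.96-fold) and Glb1 (2.4-fold), and so did the GM2 ganglioside activator Gm2a (2.31-fold). Of the 8 V-ATPase members 6 fell, led by Atp6v1c1 (2.02-fold lower). In all 17 of the 53 tested members rose (32.1%), where 20.8% of all genes tested did, and 12 fell (22.6%), where 21.1% of all genes did. The median log2 fold change was 0.10 over the members, against -0.00 over all genes, and 0.23 over the 45 tested members outside the V-ATPase. Of the 17 rises 15 were called under each of 20 alternative settings, as were 7 of the 12 falls. Without Valine 1, 7 members fell, where 2826 of 18825 genes did, fewer than the 3884 of 18415 with all libraries.

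Against Control the Val+PA group showed 21 members higher (39.6%, background 20.4%) and 6 lower (11.3%, background 18.8%), with a median of 0.21. These counts share the Control libraries with the comparison above. The same 2 background shares apply to the Val+PA counts against Control given below by role and by list. Of the 21 members higher 16 were called under each of the 20 settings, as were 5 of the 6 lower. Summed over all 55 members, expression was 8773 to 8884 CPM in Control, 10186 to 10254 CPM in Valine and 10965 to 11692 CPM in Val+PA, and the 3 ranges did not overlap. Abundant genes weigh most in such a sum. Ctsb alone averaged 1431, 2114 and 2577 CPM in these groups, and Psap 729, 879 and 1145 CPM. As a share of each library's total length-normalized signal, the members held 0.357 to 0.472% in Control, 0.539 to 0.553% in Valine and 0.542 to 0.600% in Val+PA. On that scale Valine and Val+PA overlapped, while the summed signal itself did not (5151 to 5209 and 5507 to 6058). Without Control 3 and Val+PA 2, the libraries that stood apart, 24 members rose and 14 fell in Valine, and 23 rose and 9 fell in Val+PA. Calls over all genes were also more frequent under that setting, with 5068 higher and 5104 lower of 18799 in Valine and 4741 and 4621 in Val+PA.

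**Figure D2:**
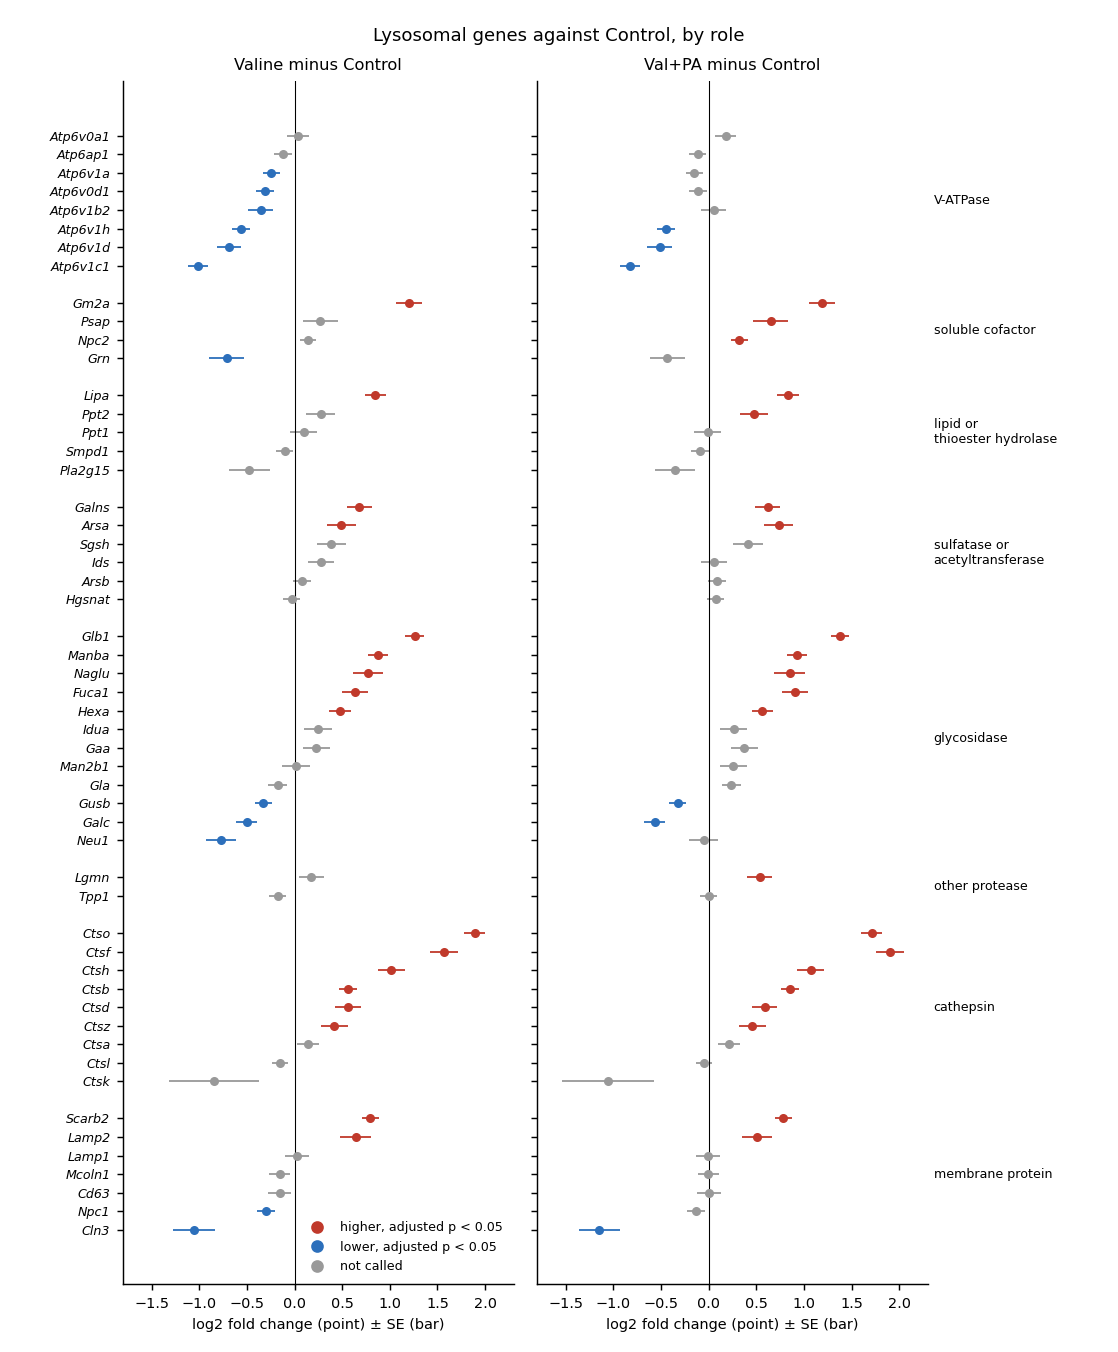
Log2 fold change (points) ± SE (bars) of the 53 tested lysosomal genes in Valine minus Control and Val+PA minus Control, grouped by role. Red marks members called higher (17 and 21), blue members called lower (12 and 6) and grey those not called. The cathepsin and glycosidase blocks hold most of the red points, and the V-ATPase block holds blue and grey points only.

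Promoters are shown because members moved in opposite directions and many lysosomal promoters carry the CLEAR element, bound by TFEB and its relatives, whose core is the palindrome CACGTG. RefSeq promoter windows of GRCm38.p6, 250 bases before to 50 bases after a gene start, were at hand for 47 of the 55 members and 27025 genes in all. CACGTG lay in the windows of 16 of the 47 members (34.0%) and of 2187 of the 27025 genes (8.09%). The longer palindrome TCACGTGA, which contains CACGTG, lay in 7 members (14.9%) and in 304 of all genes (1.12%). Both read the same on either strand. Among members with a window, CACGTG was found in 5 of 14 that rose in Valine against Control, 3 of 8 that fell and 8 of 23 not called. The windows around TCACGTGA follow, 5′ to 3′ on the gene's strand, with that motif in capitals. Ctsd rose in Valine, Atp6v0d1, Atp6v1a and Cln3 fell, and Ctsa, Gla and Mcoln1 were not called.
Ctsd (chr7:142387879-142387966, minus strand): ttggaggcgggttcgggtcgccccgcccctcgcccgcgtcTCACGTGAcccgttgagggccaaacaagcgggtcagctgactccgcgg
Atp6v0d1 (chr8:105566045-105566108, minus strand): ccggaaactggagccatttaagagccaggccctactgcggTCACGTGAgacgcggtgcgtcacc
Atp6v1a (chr16:44139344-44139431, minus strand): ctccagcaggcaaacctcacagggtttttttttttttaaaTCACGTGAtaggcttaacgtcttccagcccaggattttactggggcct
Cln3 (chr7:126583311-126583398, minus strand): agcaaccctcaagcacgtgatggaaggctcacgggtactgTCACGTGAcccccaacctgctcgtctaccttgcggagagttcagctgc
Ctsa (chr2:164833720-164833792, plus strand): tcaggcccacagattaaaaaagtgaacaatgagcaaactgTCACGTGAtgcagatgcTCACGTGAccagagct
Gla (chrX:134601153-134601255, minus strand): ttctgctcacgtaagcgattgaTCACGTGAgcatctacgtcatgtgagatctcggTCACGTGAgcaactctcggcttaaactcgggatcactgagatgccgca
Mcoln1 (chr8:3500433-3500520, plus strand): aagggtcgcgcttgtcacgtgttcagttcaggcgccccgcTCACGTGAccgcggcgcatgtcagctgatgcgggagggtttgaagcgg
The motif began 99 bases before the start in Ctsd, 4 in Atp6v0d1, 132 in Atp6v1a, 122 in Cln3 and 46 in Mcoln1. Gla held 2 copies, 228 and 195 bases before its start, and Ctsa held 2, the first 13 bases before its start and the second 4 bases after it. Among members with a window, TCACGTGA lay in 1 of 14 that rose in Valine against Control, 3 of 8 that fell and 3 of 23 not called. The motif was thus present in windows of genes called in either direction and of genes not called.

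Of the 7 membrane proteins 2 rose (28.6%) and 2 fell (28.6%) in Valine against Control, near the 20.8% and 21.1% of all genes, with a median log2 fold change of -0.16, and in Val+PA 2 were higher and 1 lower. Scarb2 (ENSMUSG00000029426, GRCm38 chromosome 5, 92441314 to 92506833, minus strand) encodes LIMP-2, the receptor that carries glucocerebrosidase to the lysosome. It measured 203, 205 and 211 CPM in Control, 362, 345 and 368 CPM in Valine, and 365, 327 and 371 CPM in Val+PA. All 6 treated libraries stood above all 3 Controls, for a log2 fold change of 0.80 in Valine (SE 0.09, edgeR adjusted p = 2.97e-05) and 0.78 in Val+PA (SE 0.09, edgeR adjusted p = 3.5e-05).

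Lamp2, the membrane glycoprotein needed for autophagosomes to mature, had 580, 613 and 527 CPM in Control and 909, 885 and 891 CPM in Valine, a log2 rise of 0.64 (SE 0.16, edgeR adjusted p = 0.00689). Its Val+PA libraries read 958, 573 and 911 CPM, with Val+PA 2 inside the Control range and the others near Valine. The call in Val+PA against Control (log2 fold change 0.50, SE 0.16, edgeR adjusted p = 0.025) was lost when Control 1, Control 3, Val+PA 1 or Val+PA 3 was left out, at edgeR adjusted p of 0.0595 to 0.0986. Lamp1, the most abundant membrane protein per length, measured 934, 947 and 701 CPM in Control, 861, 907 and 859 CPM in Valine and 929, 766 and 870 CPM in Val+PA. The 3 groups overlapped, and the log2 fold change in Valine was 0.02 (SE 0.12, edgeR adjusted p = 0.891).

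Cln3 (ENSMUSG00000030720, GRCm38 chromosome 7, 126571207 to 126585817, minus strand), whose loss causes juvenile Batten disease, was low and fell. It had 3.01, 3.16 and 3.71 CPM in Control, 1.28, 1.74 and 1.73 CPM in Valine and 1.49, 1.15 and 1.79 CPM in Val+PA, from 36 to 104 counts per library. No treated library reached the Control range, and the log2 fold change was -1.05 in Valine (SE 0.22, edgeR adjusted p = 0.00212) and -1.15 in Val+PA (SE 0.22, edgeR adjusted p = 0.00135). Npc1, the transporter that passes cholesterol out of the lysosome, measured 86.5, 90.4 and 83.6 CPM in Control and 70.8, 69.5 and 71.6 CPM in Valine, a log2 fold change of -0.30 (SE 0.09, edgeR adjusted p = 0.0206). That call was lost without Control 1, Control 2 or any 1 Valine library, at edgeR adjusted p of 0.0518 to 0.0858. Cd63, a tetraspanin, and Mcoln1, the cation channel that releases lysosomal calcium, were not called in any comparison.

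Cathepsins are peptidases of the lysosomal lumen. In Valine against Control 6 of 9 tested cathepsins rose (66.7%, against 20.8% of all genes) and the other 3 were not called, with a median log2 fold change of 0.56, and the counts were the same in Val+PA against Control, with a median of 0.59. The summed level of all 11 was 2735 to 2837 CPM in Control, 3708 to 3747 CPM in Valine and 4066 to 4591 CPM in Val+PA. Ctsb alone averaged 1431, 2114 and 2577 CPM in these groups, so it weighs heavily in that sum. Without Control 3 and Val+PA 2, 6 cathepsins rose in each comparison with Control.

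Ctso (ENSMUSG00000028015, GRCm38 chromosome 3, 81932601 to 81956725, plus strand), the cysteine cathepsin O, had the largest rise of the members in Valine against Control. Its libraries read 18.5, 16.5 and 17.1 CPM in Control, 64.4, 63.9 and 64.9 CPM in Valine and 56.2, 51.2 and 62.8 CPM in Val+PA. The Valine libraries were nearly alike and lay far above Control, with Val+PA below Valine and above Control. The log2 fold change was 1.89 in Valine (SE 0.11, edgeR adjusted p = 2.13e-07) and 1.71 in Val+PA (SE 0.11, edgeR adjusted p = 4.07e-07).

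Ctsb (ENSMUSG00000021939, GRCm38 chromosome 14, 63122462 to 63145923, plus strand), a cysteine protease that cleaves proteins and trims dipeptides, measured 1404, 1405 and 1483 CPM in Control, 2081, 2101 and 2162 CPM in Valine and 2363, 2855 and 2513 CPM in Val+PA. The groups formed 3 steps without overlap. The rise was 0.56 on the log2 scale in Valine (SE 0.09, edgeR adjusted p = 0.000543) and 0.85 in Val+PA (SE 0.10, edgeR adjusted p = 2.75e-05). Exons of Fdft1, on the opposite strand, cover 12.8% of the exon bases of Ctsb. Fdft1 averaged 364 CPM in Control, 220 CPM in Valine and 251 CPM in Val+PA, so that it was lower in Valine than in Control, where Ctsb was higher.

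Ctsd, the main aspartic protease of the lysosome, read 496, 502 and 348 CPM in Control, 669, 675 and 639 CPM in Valine and 714, 699 and 609 CPM in Val+PA. Control 3 was the lowest library, and the rise was 0.56 in Valine (SE 0.13, edgeR adjusted p = 0.00565) and 0.59 in Val+PA (SE 0.13, edgeR adjusted p = 0.0044). Ctsf and Ctsh, a cysteine endopeptidase and an aminopeptidase, stood low on the scale per length and rose. Ctsf went from 3.66, 3.71 and 4.51 CPM to 11.4, 12.3 and 11.4 CPM in Valine and 13.5, 17.2 and 13.6 CPM in Val+PA (log2 fold changes of 1.57 and 1.90), and Ctsh rose by 1.01 and 1.07. In both genes every treated library lay above every Control library. Ctsz, a carboxypeptidase, rose by 0.42 (SE 0.14, edgeR adjusted p = 0.0305), a call lost without Control 3 (0.27, edgeR adjusted p = 0.0597) or without any 1 Valine library. In Val+PA against Control it stood 0.46 higher, and 0.30 higher without Control 3, a call lost without Val+PA 1 at an edgeR adjusted p = 0.0509.

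The cathepsins not called were Ctsa, Ctsl and Ctsk. Ctsa, the serine carboxypeptidase that shields beta-galactosidase and neuraminidase, had log2 fold changes of 0.14 in Valine and 0.21 in Val+PA. Ctsl, the broadly acting cathepsin L, had -0.15 and -0.05, and Ctsk -0.84 (SE 0.47) and -1.06 (SE 0.48) at 0.0927 to 0.545 CPM. Without Val+PA 1, Ctsk passed the test against Control, at -1.77 (edgeR adjusted p = 0.023). Per length, Ctsl stood high and was not called, while Ctsf and Ctsh stood near the bottom and rose.

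**Figure D3:**
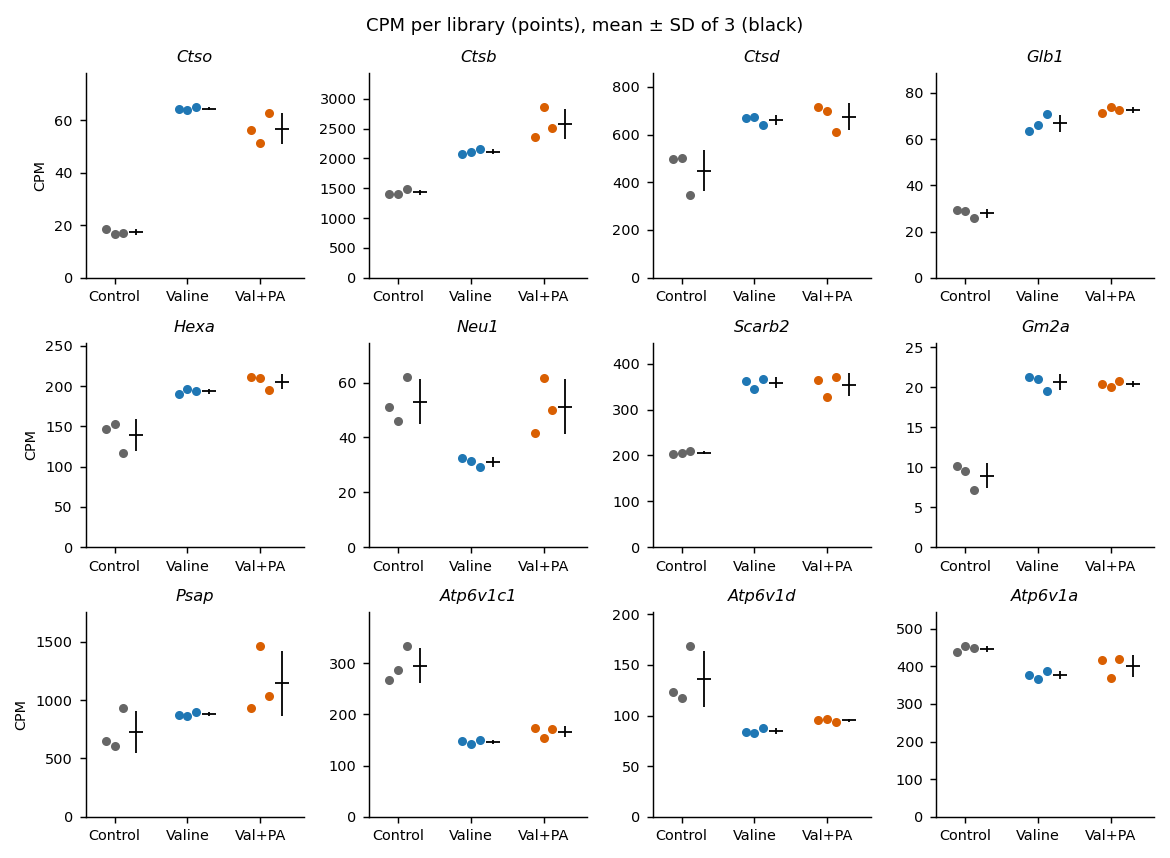
CPM of 12 lysosomal genes in each library (points) with the mean ± SD of 3 libraries (black) for Control, Valine and Val+PA, on linear axes from 0. The Control points of Ctso (16.5 to 18.5 CPM) lie well below the treated ones, Ctsb forms 3 separate steps, Neu1 lies lowest in Valine, and the Val+PA points of Psap spread from 934 to 1462 CPM.

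The other proteases, Lgmn and Tpp1, were not called in Valine. Lgmn, the asparaginyl endopeptidase that activates several cathepsins, had 153, 137 and 184 CPM in Control, 179, 177 and 180 CPM in Valine and 193, 264 and 230 CPM in Val+PA. Its Val+PA libraries lay above all others, and the rise over Control was 0.53 on the log2 scale (SE 0.13, edgeR adjusted p = 0.00702). Tpp1, the tripeptidyl peptidase lost in a childhood neuronal storage disease, had log2 fold changes of -0.18 in Valine and -0.00 in Val+PA.

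Among the glycosidases, which remove sugars from glycoproteins, glycolipids and glycosaminoglycans, 5 of 12 rose in Valine (41.7%, against 20.8% of all genes), 3 fell (25%, against 21.1%) and the median log2 fold change was 0.24. In Val+PA against Control 5 were higher and 2 lower, with a median of 0.32. Glb1 (ENSMUSG00000045594, GRCm38 chromosome 9, 114401076 to 114474898, plus strand), the acid beta-galactosidase used as a stain for senescent cells, had the largest rise of the role. It measured 29.3, 28.7 and 25.8 CPM in Control, 63.7, 66.2 and 71.0 CPM in Valine and 71.3, 73.8 and 72.7 CPM in Val+PA. Every treated library lay well above every Control library, and every Val+PA library above every Valine library. The log2 fold change was 1.26 in Valine (SE 0.10, edgeR adjusted p = 1.69e-06) and 1.38 in Val+PA (SE 0.10, edgeR adjusted p = 9.16e-07).

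Hexa, the alpha subunit of beta-hexosaminidase and the most abundant glycosidase per length, measured 147, 153 and 117 CPM in Control, 191, 196 and 194 CPM in Valine and 212, 210 and 195 CPM in Val+PA. All treated libraries lay above Control, with a rise of 0.48 in Valine (SE 0.11, edgeR adjusted p = 0.0045) and 0.56 in Val+PA (SE 0.11, edgeR adjusted p = 0.00164). Manba (beta-mannosidase), Naglu (which takes N-acetylglucosamine off heparan sulfate) and Fuca1 (alpha-fucosidase) rose by 0.88, 0.77 and 0.64 in Valine and by 0.93, 0.85 and 0.91 in Val+PA. In each of these 3 genes the lowest treated library was above the highest Control library.

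Neu1 (ENSMUSG00000007038, GRCm38 chromosome 17, 34931253 to 34935953, plus strand), the sialidase that removes terminal sialic acid, had the largest fall of the role. Its libraries read 51.1, 45.9 and 62.1 CPM in Control, 32.5, 31.5 and 29.1 CPM in Valine, and 41.7, 61.7 and 50.04 CPM in Val+PA. Valine lay below both other groups, and those overlapped. The log2 fold change was -0.77 in Valine against Control (SE 0.15, edgeR adjusted p = 0.00167) and -0.05 in Val+PA against Control (SE 0.15, edgeR adjusted p = 0.817).

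Galc, which breaks down the myelin lipid galactosylceramide, read 71.0 to 76.4 CPM in Control and 49.5 to 53.3 CPM in Valine (log2 fold change -0.50, SE 0.11, edgeR adjusted p = 0.00328), and in Val+PA it fell by 0.57. Gusb, beta-glucuronidase, fell by 0.33 in Valine and by 0.32 in Val+PA. The first of these calls was lost without Valine 1 (edgeR adjusted p = 0.0695) and the second without Val+PA 3 (edgeR adjusted p = 0.051). Gaa, the acid alpha-glucosidase that digests glycogen, was not called, at 38.9 to 41.9 CPM in Control, 46.1 to 48.7 CPM in Valine and 43.3 to 66.9 CPM in Val+PA. Its log2 fold change in Valine was 0.23 (edgeR adjusted p = 0.225), which passed without Val+PA 2 (edgeR adjusted p = 0.0323). In Val+PA against Control it was 0.37 (edgeR adjusted p = 0.0567) and ran from 0.17 to 0.50 as single libraries were left out, passing without Val+PA 1 (edgeR adjusted p = 0.0131). Idua (alpha-iduronidase) and Man2b1 (alpha-mannosidase) were not called in either comparison with Control, and Gla is described with the Val+PA and Valine groups.

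Of the 6 sulfatases or acetyltransferases, which act on glycosaminoglycans and sulfatides, 2 rose in Valine (33.3%, against 20.8% of all genes). In that comparison 0 fell, where 21.1% of all genes did. In Val+PA 2 were higher, and in each comparison with Control the other 4 were not called. Galns, a sulfatase of keratan sulfate, had 16.0, 15.9 and 12.1 CPM in Control, 23.1, 24.2 and 23.4 CPM in Valine and 23.8, 23.7 and 20.1 CPM in Val+PA. All treated libraries were above all Controls, with a rise of 0.68 in Valine (SE 0.13, edgeR adjusted p = 0.00145) and 0.62 in Val+PA (SE 0.13, edgeR adjusted p = 0.00291). Arsa, the sulfatase of sulfatides, rose by 0.49 in Valine (SE 0.15, edgeR adjusted p = 0.0214), a call lost without Control 1, Control 2 or any 1 Valine library (edgeR adjusted p 0.0525 to 0.0884), and by 0.73 in Val+PA (SE 0.15, edgeR adjusted p = 0.00235). Hgsnat, the membrane-bound acetyltransferase of heparan sulfate and the most abundant of the role per length, overlapped between Valine and Control, at 111, 108 and 106 CPM in Control, 105, 103 and 111 CPM in Valine and 112, 118 and 112 CPM in Val+PA. Its log2 fold change in Valine was -0.03 (SE 0.09, edgeR adjusted p = 0.817), and Ids, Sgsh and Arsb had 0.28, 0.39 and 0.08. Without Val+PA 2, Ids passed in Valine against Control (0.28, edgeR adjusted p = 0.00718) and in Val+PA against Control (0.22, edgeR adjusted p = 0.0426, from 0.06 with all libraries), and Sgsh passed in Valine against Control (0.39, edgeR adjusted p = 0.0185).

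Of the 5 lipid and thioester hydrolases, Lipa was the 1 that rose in Valine (20%, against 20.8% of all genes). In that comparison 0 fell, where 21.1% of all genes did. Lipa (ENSMUSG00000024781, GRCm38 chromosome 19, 34492318 to 34527474, minus strand), the acid lipase that frees fatty acids and cholesterol from triglycerides and cholesteryl esters, read 82.4, 75.2 and 67.8 CPM in Control. Valine libraries had 140, 132 and 135 CPM and Val+PA libraries 138, 116 and 147 CPM, all above Control. The rise was 0.85 in Valine (SE 0.11, edgeR adjusted p = 0.000105) and 0.83 in Val+PA (SE 0.11, edgeR adjusted p = 0.000131).

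Smpd1, the acid sphingomyelinase, had the highest level per length of the lipid hydrolases, at 67.2, 67.5 and 70.2 CPM in Control, 63.3, 65.3 and 62.1 CPM in Valine and 59.9, 67.6 and 64.9 CPM in Val+PA. Valine lay just below Control and Val+PA overlapped both groups, and the log2 fold change in Valine was -0.10 (SE 0.09, edgeR adjusted p = 0.397). Ppt2, a thioesterase, was higher in Val+PA than in Control by 0.47 (SE 0.15, edgeR adjusted p = 0.0239), a value of 0.31 without Val+PA 2, and the call was lost without Control 1 or Control 2 (edgeR adjusted p = 0.0562 and 0.0835). Ppt1, which removes palmitate from proteins, and Pla2g15, a lysosomal phospholipase, were not called, with log2 fold changes of 0.10 and -0.47 in Valine. Pla2g15 passed the test without Val+PA 2, at -0.47 in Valine (edgeR adjusted p = 0.0245) and -0.64 in Val+PA against Control (edgeR adjusted p = 0.0123), where it had -0.36 with all libraries and -0.18 to -0.64 with single libraries left out.

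The soluble cofactors split between a rise of Gm2a, a fall of Grn and a rise of Psap and Npc2 that was called in Val+PA. Gm2a (ENSMUSG00000000594, GRCm38 chromosome 11, 55098115 to 55113029, plus strand), which lifts GM2 ganglioside out of the membrane for beta-hexosaminidase, had 10.1, 9.54 and 7.17 CPM in Control, 21.3, 21.1 and 19.6 CPM in Valine and 20.5, 20.01 and 20.7 CPM in Val+PA. The treated groups overlapped each other and lay above Control, by 1.20 in Valine (SE 0.14, edgeR adjusted p = 2.84e-05) and 1.19 in Val+PA (SE 0.14, edgeR adjusted p = 3.26e-05). Gm2a and Hexa, which act on the same lipid, were both called higher.

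Psap, cut into the saposins that present sphingolipids to their hydrolases, read 649, 604 and 934 CPM in Control, 873, 865 and 900 CPM in Valine, and 934, 1462 and 1038 CPM in Val+PA. Control 3 and Val+PA 2 were the highest libraries of their groups, and Control 3 overlapped Valine. The log2 fold change was 0.27 in Valine (SE 0.18, edgeR adjusted p = 0.254), and 0.49 without Control 3 (edgeR adjusted p = 0.0296). In Val+PA against Control it was 0.65 (SE 0.18, edgeR adjusted p = 0.0134), a call lost without Control 1 (edgeR adjusted p = 0.0556) or Control 2 (edgeR adjusted p = 0.0575). Npc2, the soluble partner of Npc1 in cholesterol export, was 0.32 higher in Val+PA than in Control (SE 0.09, edgeR adjusted p = 0.0124), a call lost without Control 2 (edgeR adjusted p = 0.0546). Grn, progranulin, measured 55.1, 56.1 and 75.0 CPM in Control, 37.3, 37.3 and 38.9 CPM in Valine and 33.5, 59.5 and 44.7 CPM in Val+PA. It fell by 0.71 in Valine (SE 0.19, edgeR adjusted p = 0.00869), and in Val+PA, where Val+PA 2 lay inside the Control range, its log2 fold change was -0.44 (SE 0.18, edgeR adjusted p = 0.0806), or -0.66 without Val+PA 2 (edgeR adjusted p = 0.00564).

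Subunits of the V-ATPase, the proton pump, were called lower where many hydrolases were called higher. In Valine 6 of the 8 members fell (75.0%, against 21.1% of all genes) and the other 2 were not called, with a median log2 fold change of -0.33, and in Val+PA against Control 3 fell, with a median of -0.13. Their summed level was 1371 to 1531 CPM in Control, 1040 to 1073 CPM in Valine and 1170 to 1198 CPM in Val+PA, with Val+PA between the other groups and no overlap. As a share of each library's total length-normalized signal, Val+PA (0.0515 to 0.0542%) overlapped Control (0.0529 to 0.0657%) and not Valine (0.0481 to 0.0507%). The count of 6 also held without Control 3 and Val+PA 2. It was 3 without Control 2, Valine 1, Valine 2 or Valine 3, and 4 without Control 1, Control 3 or Val+PA 3. Over all genes, 2826 to 4687 were called lower in Valine as single libraries were left out. Atp6v1c1, Atp6v1d and Atp6v1h were called under each of the 20 settings.

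Atp6v1c1 (ENSMUSG00000022295, GRCm38 chromosome 15, 38661933 to 38692446, plus strand), the C subunit that joins the cytosolic V1 sector to the membrane sector, had the largest fall of the V-ATPase members. It read 266, 286 and 332 CPM in Control, 147, 142 and 150 CPM in Valine and 174, 154 and 171 CPM in Val+PA. Each Val+PA library lay above each Valine library and below each Control library. The log2 fold change was -1.01 in Valine (SE 0.11, edgeR adjusted p = 1.49e-05) and -0.83 in Val+PA (SE 0.11, edgeR adjusted p = 7.22e-05).

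Atp6v1d, part of the rotor shaft, had 123, 117 and 168 CPM in Control, 83.3, 82.6 and 87.8 CPM in Valine and 95.7, 96.7 and 93.7 CPM in Val+PA. It fell by 0.69 in Valine (SE 0.13, edgeR adjusted p = 0.00112) and by 0.52 in Val+PA (SE 0.13, edgeR adjusted p = 0.00711), with a log2 fold change of -0.33 in Val+PA without Control 3, its highest library. Atp6v1h, a regulatory subunit of the V1 sector, fell by 0.56 in Valine (SE 0.09, edgeR adjusted p = 0.000558) and by 0.44 in Val+PA (SE 0.09, edgeR adjusted p = 0.00267). These 3 subunits showed the same order of groups, Control above Val+PA above Valine, with no overlap between libraries.

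Atp6v1a, the catalytic subunit and the most abundant member of the pump per length, measured 437, 453 and 449 CPM in Control, 378, 366 and 387 CPM in Valine and 417, 368 and 421 CPM in Val+PA. Valine and Val+PA both lay below Control, and the log2 fold change in Valine was -0.24 (SE 0.09, edgeR adjusted p = 0.0468). That call was lost in 8 of 9 cases of leaving out 1 library, all but Val+PA 2, at edgeR adjusted p of 0.0522 to 0.165. Atp6v0d1, of the membrane sector V0, fell by 0.31 (SE 0.09, edgeR adjusted p = 0.0191), and the call was lost without Control 1, Control 2 or any 1 Valine library (edgeR adjusted p 0.0604 to 0.0744). Atp6v1b2, the other nucleotide-binding subunit, had a log2 fold change of -0.36 (SE 0.13, edgeR adjusted p = 0.0444), and of -0.19 without Control 3 (edgeR adjusted p = 0.161). Its call was also lost without Control 2, Val+PA 3 or any 1 Valine library. Atp6v0a1, of the membrane sector, and the accessory protein Atp6ap1 had log2 fold changes of 0.03 and -0.12 and were not called.

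**Figure D4:**
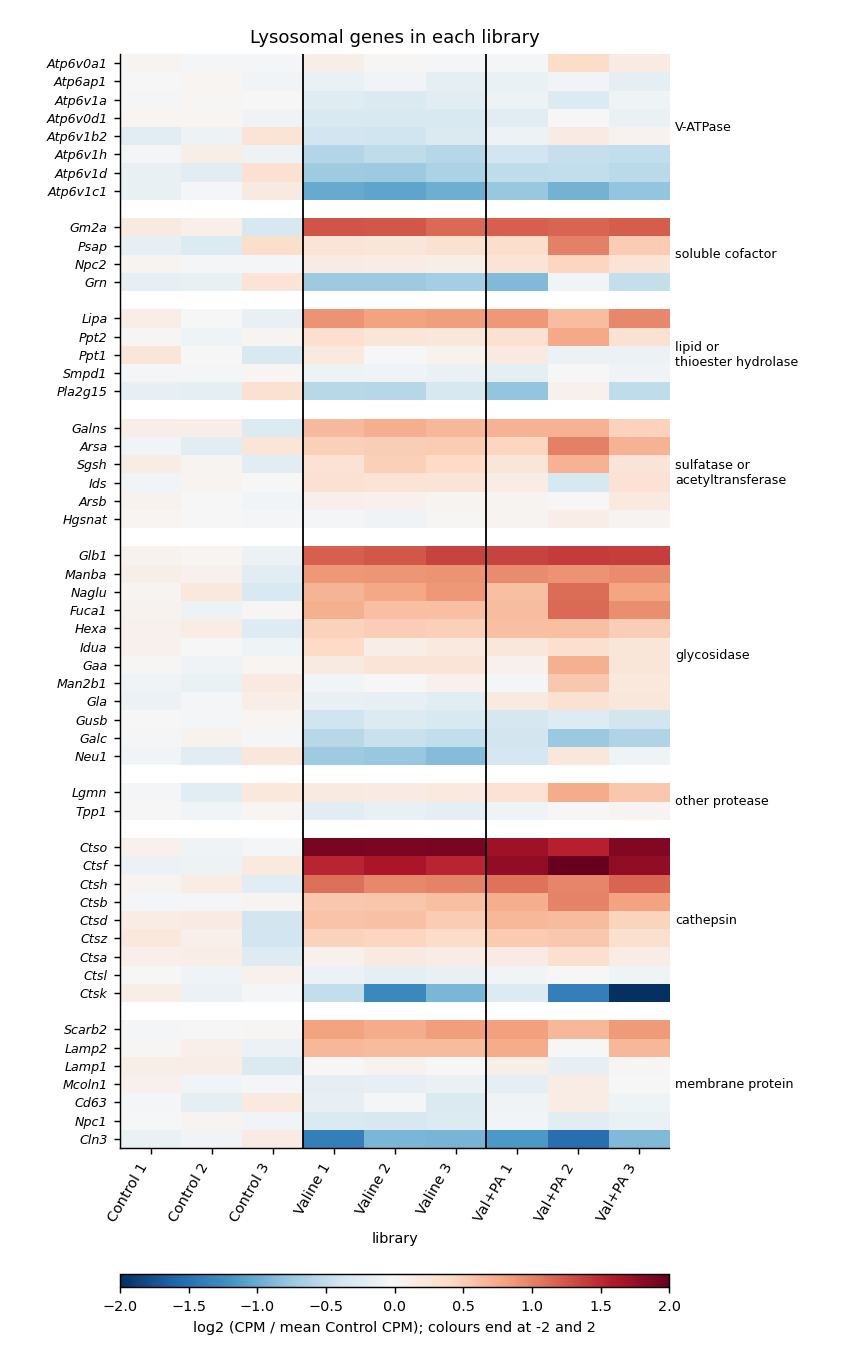
Log2 ratio of CPM to the Control mean for the 53 tested lysosomal genes (rows, by role) in each of 9 libraries (columns), with colours ending at -2 and 2. Cathepsins such as Ctso and Ctsf are red in all 6 treated libraries and Atp6v1c1 is blue in all 6, while Control 3 and Val+PA 2 differ in shade from their group mates in Psap, Grn and Neu1.

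Val+PA and Valine differ in the 75 µM palmitic acid given for 12 h, and also in the stated hours of valine and in the plate, which cannot be told apart from it. No member passed the edgeR threshold in either direction, and no gene did (background 0.0%, 0 of 18415). At an unadjusted p under 0.05 the same test gave 6 members higher, where 7.72% of all genes were, and 0 lower, where 5.47% were. DESeq2 called 2 members higher and 0 lower, where it called 132 and 80 of all 18415 genes, and limma-voom called 0. Most members nevertheless had small positive values. The log2 fold change was above 0 in 41 of 53 members, where it was in 50.7% of all genes, with a median of 0.10 against 0.00. In 18 members the 3 Val+PA libraries lay above the 3 Valine libraries (background 12.6%), and in 1 member, Ctso, they lay below (background 12.0%).

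By role, all 8 V-ATPase members had positive values, where 50.7% of all genes did, with a median of 0.16. In 5 of them each Val+PA library lay above each Valine library, where 12.6% of all genes did so. None of the 8 passed the edgeR threshold. The comparison shares its Valine libraries with Valine against Control, in which 6 of the 8 were called lower. The 4 members with the smallest p were Neu1, Gla, Atp6v1b2 and Ctsb. Neu1, at 29.1 to 32.5 CPM in Valine and 41.7 to 61.7 CPM in Val+PA, had a log2 fold change of 0.72 (SE 0.15, edgeR adjusted p = 0.192), and DESeq2 called it (0.71, adjusted p = 0.00802). Gla, the alpha-galactosidase A deficient in Fabry disease, read 50.8, 54.0 and 59.9 CPM in Control, 49.7, 48.8 and 47.1 CPM in Valine and 61.9, 68.1 and 64.0 CPM in Val+PA. Its Val+PA libraries were the 3 highest of the 9, at 0.41 over Valine (SE 0.10, edgeR adjusted p = 0.203, DESeq2 adjusted p = 0.0192). Against Control it had 0.24 (edgeR adjusted p = 0.0769), and 0.30 without Control 3 (edgeR adjusted p = 0.0264).

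Atp6v1b2 measured 146, 158 and 206 CPM in Control, 131, 129 and 139 CPM in Valine and 159, 191 and 179 CPM in Val+PA, a log2 fold change of 0.41 over Valine (SE 0.13, edgeR adjusted p = 0.314). Ctsb, in the 3 steps given above, had 0.29 (SE 0.09, edgeR adjusted p = 0.321). In all 4 genes each Val+PA library exceeded each Valine library. Since the 4 were picked by their p in this comparison, that separation is no further support. With Control 3 and Val+PA 2 left out together, the edgeR test called 5 members higher in Val+PA than in Valine, these 4 and Atp6v1c1, with adjusted p of 0.0032 for Neu1, 0.00716 for Gla, 0.0132 for Atp6v1b2, 0.0393 for Ctsb and 0.0405 for Atp6v1c1. Over all genes that setting called 312 higher and 292 lower of 18799, where the fit with all libraries called 0.

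**Figure D5:**
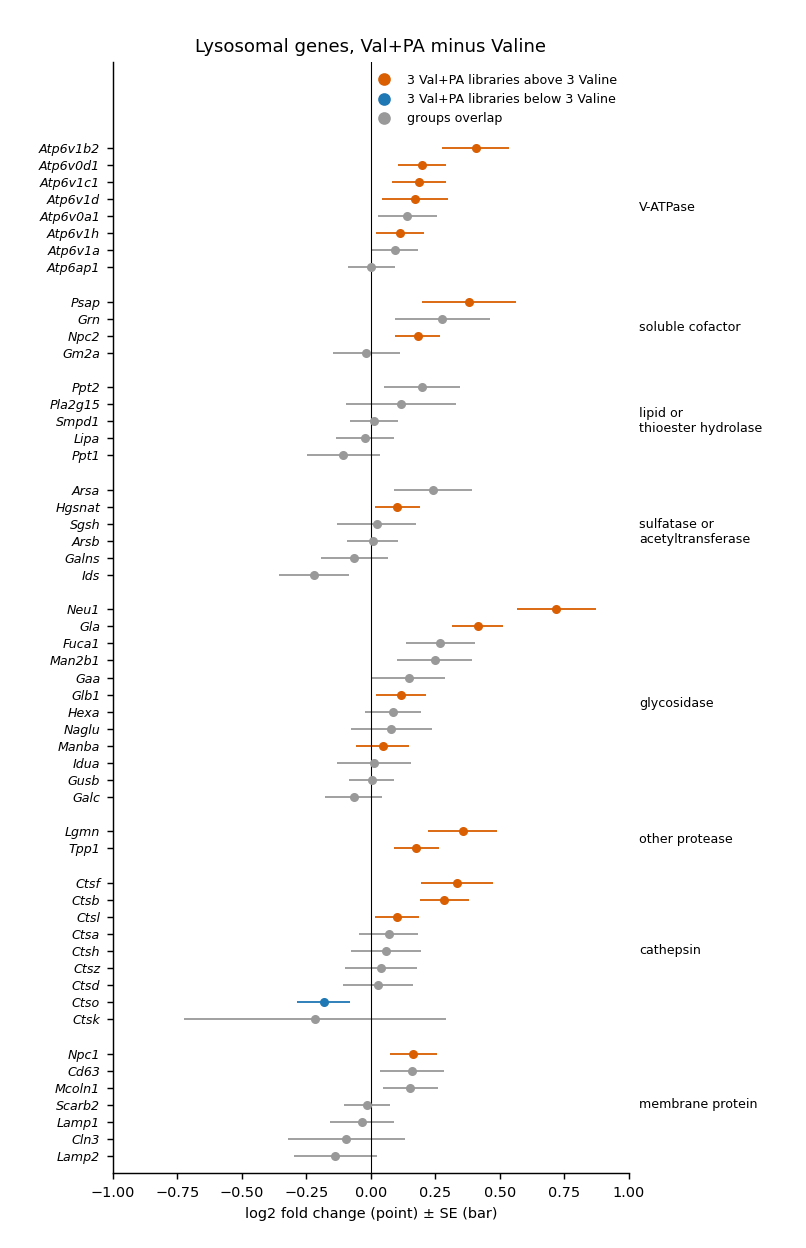
Log2 fold change (points) ± SE (bars) of the 53 tested lysosomal genes in Val+PA minus Valine, by role. Orange marks the 18 members whose 3 Val+PA libraries all lie above the 3 Valine libraries, blue the 1 member (Ctso) for which they lie below, and grey those that overlap, and no member passed the adjusted threshold. All 8 V-ATPase points lie at or right of 0.

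Other genes of the same organelle were taken from lists chosen by function. Of 34 tested lysosomal proteins outside the 55, 13 rose (38.2%, against 20.8% of all genes) and 11 fell (32.4%, against 21.1%) in Valine against Control, with a median log2 fold change of 0.19, and 14 rose and 7 fell in Val+PA. Arsg, a further sulfatase, had the largest rise at 1.22 (SE 0.24) and Ctsw, a cathepsin known from lymphocytes, the largest fall at -1.78 (SE 0.27), both at low levels of 0.543 to 2.54 CPM. Counting the 12 further V-ATPase genes tested, 12 of 20 V-ATPase genes fell (60%, against 21.1% of all genes) and 1 rose (5%, against 20.8%) in Valine. The falls include the 6 of the members, of which only Atp6v1c1, Atp6v1d and Atp6v1h were called under each of the 20 settings. Calls of the 12 further genes under those settings are not given here. The V0 sector gave 6 falls of 9 (66.7%) and the V1 sector 5 of 9 (55.6%). Atp6v0d2, an alternative d subunit prominent in osteoclasts, was the 1 that rose, by 2.04 (SE 0.42, edgeR adjusted p = 0.00215), from 0.121 to 0.353 CPM to 1.01 to 1.23 CPM. Atp6v0e2, a small membrane subunit, had the largest fall, at -1.68 (SE 0.19, edgeR adjusted p = 2.83e-05).

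Of 24 genes that deliver hydrolases to the lysosome, 4 rose (16.7%, against 20.8% of all genes) and 11 fell (45.8%, against 21.1%) in Valine, with a median of -0.32, and 4 rose and 9 fell in Val+PA. Sort1, the sorting receptor sortilin, had 7.81 to 11.4 CPM in Control and 34.0 to 36.5 CPM in Valine, a log2 fold change of 1.81 (SE 0.14, edgeR adjusted p = 1.47e-06). Igf2r, the cation-independent mannose-phosphate receptor, rose by 1.30 (SE 0.11, edgeR adjusted p = 3.99e-06) and was picked after its value was seen. Nagpa, which uncovers the mannose-phosphate tag, fell by 1.56 (SE 0.23, edgeR adjusted p = 0.000189).

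Among regulators, TFEB-family factors and mTORC1 components at the lysosomal surface gave 3 rises (13.6%, against 20.8% of all genes) and 8 falls (36.4%, against 21.1%) of 22 in Valine, with a median of -0.28, and 3 and 6 in Val+PA. Flcn, folliculin, which controls the Rag GTPases that recruit TFEB, had 83.1, 93.2 and 121 CPM in Control and 30.6, 35.0 and 37.6 CPM in Valine, a log2 fold change of -1.53 (SE 0.16, edgeR adjusted p = 2.01e-05). Lamtor2, a scaffold of the Ragulator complex, rose by 0.99 (SE 0.17, edgeR adjusted p = 0.000648). Tfeb itself and its relative Mitf, picked after their values were seen, had -0.53 and 0.67. Cathepsin inhibitors gave 2 rises (33.3%, against 20.8% of all genes) and 1 fall (16.7%, against 21.1%) of 6 in Valine. Cst3, the secreted cystatin C, rose by 0.82 (SE 0.11, edgeR adjusted p = 0.000122) and Cst6, another cystatin, fell by 0.65 (SE 0.15, edgeR adjusted p = 0.00379).

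Markers of other cell states moved with these comparisons. Summed myotube markers (Myog, Myh3, Actc1, Ckm, Tnnt3 and Mymk) were 4.67 to 5.55 CPM in Control, 56.9 to 60.5 CPM in Valine and 38.0 to 53.3 CPM in Val+PA. None of the 6 was at 0 in a whole group, but 1 had no count in Control 1 and 1 had none in Control 2. In Control 4 of them stayed under 1 CPM in every library, as did 1 in Valine and 1 in Val+PA. Summed fibroblast markers (8 genes, none at 0 in a whole group) were 1148 to 1727 CPM, 3239 to 3339 CPM and 2949 to 4166 CPM. Their part in the lysosomal results was not tested, and in bulk RNA fewer cells of a type and less RNA per cell cannot be told apart. Macrophages are rich in lysosomal enzymes, and their markers summed to 2.34 to 3.78 CPM in Control, 6.11 to 7.27 CPM in Valine and 6.44 to 8.17 CPM in Val+PA. Of the 8, all but Cd68 averaged under 1 CPM in each group, and Adgre1 and Tyrobp had no count in Control or Valine. Osteoclast markers other than Itgb3 averaged under 1 CPM, as did all 6 adipocyte markers, and endothelial markers summed to at most 3.59 CPM.

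Exons of 19 of the 55 members overlap those of another annotated gene, 15 on the opposite strand only, and the strand setting of the counting is not given in the sources used here. Overlaps above 25% of a member's exon bases were 34.4% for Ctsd, 36.6% for Ppt2, 26.9% for Ctsl and 32.3% for Arsb. The partner genes of the first 3 had no counts in any library, and the partner of Arsb was not matched in the count table. Ctsa shares 10.5% with Pltp and Glb1 shares 5.49% with Tmppe, on the same strand, which averaged 8.78 CPM in Control and 5.51 CPM in Valine.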

How the data were processed

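Total RNA of 9 wells was made into libraries described as strand-specific and sequenced as paired ends, per the labels' protocols. The submitters' processing notes list HISAT2, featureCounts, DESeq2 and GRCm38, without settings. The deposited table of counts holds whole-number read counts per Ensembl gene, not normalized. The second deposited table holds a signal that the authors normalized, tested here to be the count times 1 factor per gene and 1 per library. It served for levels per length and as an alternative unit. Samples were grouped by their titles, and the Val+PA columns were matched by a shortened code.

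Symbols and coordinates came from GENCODE M21 (52147 of 53700 IDs matched), and promoters from RefSeq (GRCm38.p6). Counts were filtered with filterByExpr, scaled by TMM and analysed by the quasi-likelihood method of edgeR 4.0.16 (R 4.3.3), with all 9 libraries and group means, which leaves 6 residual degrees of freedom. The 3 comparisons were two-sided, with Benjamini-Hochberg adjustment over 18415 genes at 0.05. SE is the absolute log2 fold change over the square root of F. The method was tested on simulated counts. Same-numbered libraries did not deviate together, so the numbers were not used as pairs.

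The 55 members, the roles and the other lists were chosen with earlier results of these data known. Library values are given by rule for, per role, the called member with the largest rise and fall in Valine against Control and the member with the highest level per length, and for the 4 members of smallest p in Val+PA against Valine. Other members are named where their call depends on a library or their role needs them, and from each other list the largest called rise and fall. Alternatives were no filter, a minimum of 1 CPM in 3 libraries, RLE factors, library size alone, DESeq2 1.42.0, limma-voom (limma 3.58.1), only the 2 groups, a replicate block, each library left out, Control 3 and Val+PA 2 left out, and limma on log2(signal + 1) or log2(signal + 0.1) at a mean signal of at least 0.5.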

Additional observations from a re-analysis of the deposited data

How the results depend on the processing

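Across 20 alternatives no member reversed its direction among called values. Leaving out 1 library at a time gave 15 to 21 members higher and 7 to 13 lower in Valine against Control, with 7 lower without Valine 1, and 18 to 22 higher and 5 to 8 lower in Val+PA against Control. Calls over all genes varied too. In Valine against Control they ran from 2970 higher and 2826 lower without Valine 1 to 4557 and 4687 without Val+PA 2. In Val+PA against Control they ran from 3071 to 4011 higher and from 2876 to 3852 lower. For Val+PA against Valine, leaving out 1 library gave 0 members higher and 0 lower. That count of members higher was 1 with no filter on low counts (Neu1), 2 with DESeq2 (Neu1 and Gla) and 5 without Control 3 and Val+PA 2, and the cause was not tested. With the replicate block the counts were 17 higher and 11 lower in Valine, 21 and 6 in Val+PA against Control, and 0 and 0 in Val+PA against Valine. Correlations of deviations ran from -0.409 to 0.238 for libraries of the same number and from -0.46 to 0.44 for others, so the numbers show no pairing. The 6 V-ATPase falls in Valine were 3 with library size alone and in both signal fits, and 4 with no filter. Over all genes, Val+PA against Valine had 132 genes higher and 80 lower by DESeq2, 476 and 287 with no filter, and 312 and 292 without Control 3 and Val+PA 2. The counting depth limits Ctsc, Ctss and Ctsk, at up to 17 counts per library.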
